A study of Mus musculus with 19 samples.

Results

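The plasma membrane and organelle carriers of glutamate, GABA, glycine, monoamines and amino acids were taken as all genes whose symbol begins with Slc1a, Slc6a, Slc7a or Slc38a. The rule found 54 of the 20436 genes in the RNA and ribosome profiling tables, 7 of Slc1a, 20 of Slc6a, 16 of Slc7a and 11 of Slc38a. A pair of these symbols do not name a carrier: Slc6a19os is an antisense RNA without a coding sequence, and Slc7a6os is the coding gene next to Slc7a6. Both are kept in the counts of genes. The genes were taken by name alone, although the families were chosen with earlier results of these data known.

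Hippocampal slices of wild-type male mice aged 28 to 42 days were incubated for 5 min with the group I metabotropic glutamate receptor agonist DHPG at 100 µM, or with its vehicle, artificial cerebrospinal fluid (basal). All slices then received cycloheximide at 100 µg/ml, which holds ribosomes in place, and slices of several mice were pooled in each replicate. RNA-seq gave the level of each RNA in 4 basal and 5 DHPG libraries. Ribosome profiling gave ribosome-protected fragments (RPFs), the stretches of RNA covered by a ribosome, in 5 basal and 5 DHPG libraries. No other genotype, dose or time was analysed here.

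Transmitter released at a synapse is removed mainly by uptake. Slc1a carriers move glutamate with sodium, largely into astrocytes, and Slc6a carriers move GABA, glycine, monoamines, proline, taurine or creatine with sodium and chloride. Slc7a carriers exchange or import amino acids, several of them bound to the heavy chain Slc3a2, and Slc38a carriers move glutamine and other neutral amino acids, which links astrocytes to neurons in the glutamate-glutamine cycle. Activation of group I receptors by DHPG induces a long-term depression that needs new protein, so the question was whether the RNA or the footprints of these carriers differ within minutes of the stimulus.

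Libraries held 4870813 to 7793244 counts in RNA and 5692064 to 22092434 counts in RPF. Libraries with the same replicate number were compared as pairs. The slices held the markers of their tissue: the 10 markers of excitatory hippocampal neurons summed to 4824 to 5790 CPM (counts scaled to library size) in basal RPF libraries, and the 10 astrocyte markers to 2299 to 2841 CPM. Markers of thalamus, a neighbouring region, were present as well, at 172 to 208 CPM in basal RPF and 172 to 266 CPM after DHPG, and 6 of the 9 tested passed the RPF threshold, all higher after DHPG. These are bulk slices, so fewer cells of a type and less RNA per cell cannot be told apart.

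Reads were assigned to genes by sequence, so carriers that share coding sequence had to be looked at first. In the annotated coding sequences (GENCODE, mm10), Slc6a20a and Slc6a20b, which lie next to each other on chromosome 9 and encode imino acid carriers, shared 812 windows of 30 nt, about the length of a footprint, or 48.0% of those in the shorter sequence. Their longest common stretch within an exon, 189 nt, is shown because a footprint from it could belong to either gene. The strands are minus, and the 219 nt printed, which include a flank, lie at chr9:123660395-123660613 and chr9:123608999-123609217. Both stretches are coding, and capitals mark the 3 positions in the flank that differ.
Slc6a20a: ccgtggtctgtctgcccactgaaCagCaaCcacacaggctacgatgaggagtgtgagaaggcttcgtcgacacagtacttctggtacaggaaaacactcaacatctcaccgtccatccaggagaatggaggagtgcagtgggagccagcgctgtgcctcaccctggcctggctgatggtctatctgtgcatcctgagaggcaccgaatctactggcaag
Slc6a20b: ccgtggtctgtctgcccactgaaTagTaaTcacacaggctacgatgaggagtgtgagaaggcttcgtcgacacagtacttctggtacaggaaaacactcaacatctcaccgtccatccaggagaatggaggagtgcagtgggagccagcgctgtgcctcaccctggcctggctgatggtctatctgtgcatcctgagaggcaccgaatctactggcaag

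Despite this likeness the counts were given to Slc6a20a almost alone. Slc6a20a had 682 RNA counts and 1184 RPF counts over all libraries, and Slc6a20b had 6 and 0. Before counting, the study kept only reads that mapped uniquely. Reads of the common stretches may thus be missing from both genes, so the level of each of the pair is uncertain. The GABA carriers Slc6a12 and Slc6a13, neighbours on the plus strand of chromosome 6, shared only 33 windows. Their longest common stretch within an exon has 53 nt. It is shown to give the contrast, with the 5 differing positions of its flanks in capitals. With the flanks, the 91 nt printed lie in the coding sequence at chr6:121347542-121347632 and chr6:121302813-121302903.
Slc6a12: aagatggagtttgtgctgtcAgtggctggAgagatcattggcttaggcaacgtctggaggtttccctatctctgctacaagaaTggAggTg
Slc6a13: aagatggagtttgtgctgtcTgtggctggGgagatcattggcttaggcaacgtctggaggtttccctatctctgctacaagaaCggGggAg

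The only other pair within a family with a common window was Slc38a1 with Slc38a4, with 3. On the opposite strand, 1216 nt of the coding sequence of Slc1a1 overlap the gene 4430402I18Rik, which had 122 RNA and 134 RPF counts in all libraries beside 12128 and 32726 of Slc1a1. For Slc6a9, 363 coding nt overlap Ccdc24, which had 36 RNA and 3 RPF counts beside 3735 and 6188. Other neighbours had more counts than the gene they overlap: 237 nt of the Slc7a10 transcript (12.1%) overlap Lrp3, with 9040 RNA counts beside 3023, and 230 nt of Slc7a7 (10.1%) overlap Oxa1l, with 2872 RNA counts beside 168. Neither overlap is coding in the carrier, and since strand use in the counting is not known, the RNA levels of Slc7a10 and Slc7a7 are uncertain.

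Of the 54 genes, 37 had enough counts to be tested in both assays, Slc6a12 and Slc38a4 in RPF alone, and 15 in neither. Levels are given as CPM per kb of the countable sequence, so that genes of different length can be compared. The median gene tested had 17.3 CPM per kb in basal RPF, with quartiles at 5.63 and 50.6.

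The glutamate carriers dominated. Slc1a2 (GLT-1, the main glutamate carrier of astrocytes; chromosome 2, 102658659 to 102790784, plus strand) had 1826 to 2223 CPM per kb in the 5 basal RPF libraries, a mean of 2021 ± 155 (SD, n = 5), which is the 99.7th percentile of all genes tested. It alone made up 49.2% ± 1.16 (SD, n = 5) of the summed level per length of all the carriers in RPF and 19.7% ± 1.43 (SD, n = 4) in RNA. These shares depend on the annotated lengths: its RNA was divided by 11595 nt, while the median of its annotated transcripts is 2110 nt. In plain CPM Slc1a2 had 2422 to 2900 in basal RNA, where the carriers summed to 6636 ± 687 (SD, n = 4). In basal RPF it had 3030 to 3688 CPM, where they summed to 6878 ± 390 (SD, n = 5). Slc1a3 (GLAST, also of astrocytes) followed at 588 ± 65.7, and Slc1a1 (EAAC1, the glutamate carrier of neurons) at 163 ± 10.4 CPM per kb. The serine and alanine carrier Slc1a4 had 58.2 ± 4.21, Slc1a6 (EAAT4, known from Purkinje cells) 7.33 ± 0.616, and the glutamine carrier Slc1a5 0.760 ± 0.279. No library of a lower gene reached the range of the next higher gene in this order. By the same lengths, the whole Slc1a family made up 69.0% ± 1.64 of the RPF level and 41.4% ± 2.98 of the RNA level. Slc1a7, the glutamate carrier of the retina, was below the count filter.

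Within Slc6a, the vesicular neutral amino acid carrier Slc6a17 (NTT4) had 155 ± 0.269 CPM per kb in basal RPF (SD, n = 5), the astrocytic GABA carrier Slc6a11 (GAT-3) 94.8 ± 11.1, and the proline carrier Slc6a7 43.7 ± 1.03, with no overlap between neighbours. Slc6a15 (33.0 ± 2.43), the taurine carrier Slc6a6 (28.3 ± 1.87) and the glycine carrier Slc6a9 (GlyT1, 25.1 ± 1.98) had overlapping ranges. The creatine carrier Slc6a8 had 10.2 ± 0.378. GABA carriers of meninges and other tissues were lower still, Slc6a13 (GAT-2) at 5.05 ± 0.845 and Slc6a12 (BGT1) at 0.852 ± 0.255.

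The carriers of neurons whose cell bodies lie outside the hippocampus were near 0 or, for Slc6a3, low. The noradrenaline carrier Slc6a2 had 0 counts in the 4 basal RNA libraries and 1 in the 5 basal RPF libraries, and 3 counts over such a group correspond to 0.122 CPM in RNA and 0.0455 CPM in RPF. The serotonin carrier Slc6a4 had 2 basal RNA and 2 basal RPF counts, and the spinal and brain stem glycine carrier Slc6a5 had 2 and 2. The dopamine carrier Slc6a3 had 18 and 14, with counts in every basal library. It lay above these floors, at 0.282 to 1.23 CPM in basal RNA and 0.117 to 0.310 CPM in basal RPF. These floors cover counting error only. The other genes below the filter in both assays were Slc1a7, Slc38a8, Slc6a14, Slc6a18, Slc6a19, Slc6a19os, Slc6a20b, Slc7a9, Slc7a12, Slc7a13 and Slc7a15, most of them known from kidney, gut or retina.

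Slc7a was led by Slc7a14, a member of the cationic branch of the family, at 94.3 to 97.5 CPM per kb in basal RPF, and by Slc7a4, of the same branch, at 72.2 ± 3.13. Slc7a8 (LAT2, a neutral amino acid exchanger that pairs with Slc3a2) had 66.8 ± 2.14 and the cystine-glutamate exchanger Slc7a11 (xCT) 34.6 ± 5.48. Ranges of neighbours overlapped from Slc7a11 down to Slc7a1, and Slc7a10 (Asc-1, a carrier of D-serine and glycine) was among these at 21.7 ± 3.27. In Slc38a, the glutamine carriers Slc38a2 (SNAT2) at 94.0 ± 10.95, Slc38a1 (SNAT1) at 69.3 ± 4.57 and Slc38a3 (SNAT3, of astrocytes) at 38.5 ± 4.56 were well separated from the lysosomal glutamine carrier Slc38a7 at 16.7 ± 1.16. Slc38a1, Slc38a2 and Slc38a4 lie in a cluster on chromosome 15, yet Slc38a4 had only 0.896 ± 0.325.

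**Figure D1:**
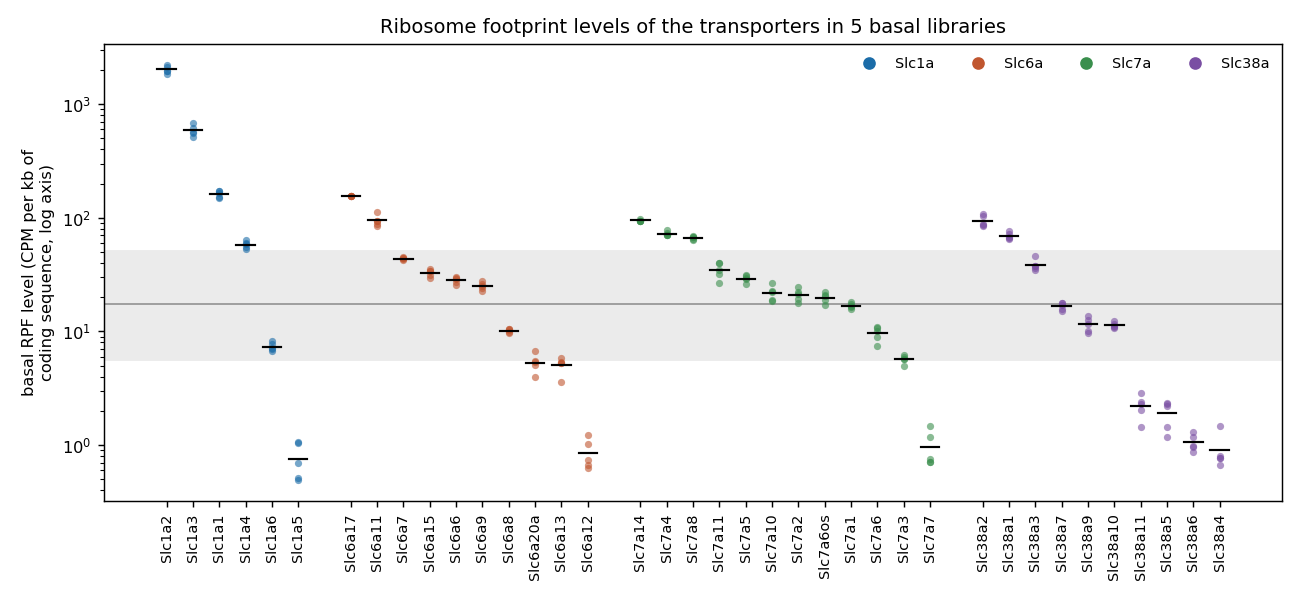
Basal RPF level (CPM per kb of coding sequence, log axis) of 38 of the 39 genes tested in RPF, ordered within each family. Points are the 5 basal libraries, bars their means, and the grey band and line the quartiles and the median of all genes tested; Slc1a2 stands highest at 2021 CPM per kb and Slc1a5 lowest at 0.760.

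DHPG was then compared with basal in RNA. None of the 37 genes tested passed an adjusted p of 0.01 in edgeR's quasi-likelihood test, and of all genes 0.00773% did. At an unadjusted p under 0.05, 3 were higher (8.11%, against 5.2% of all genes tested) and 1 was lower (2.7%, against 2.81%). DESeq2 with the same replicate block passed none either (0% of all genes) and put 2 at an unadjusted p under 0.05, or 5.41% against 2.07% of all genes. Across the families, 24 of 37 RNAs had a positive log2 change, with a median of 0.04, where 52.1% of all genes did and their median was 0.01. The family medians were 0.03 for Slc1a, 0.04 for Slc6a, 0.01 for Slc7a and -0.0046 for Slc38a, and in single replicate pairs the Slc6a median ran from -0.04 to 0.32.

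The 3 higher RNAs belonged to Slc6a. Slc6a11 RNA was at 194, 219, 263 and 148 CPM in basal replicates 1 to 4 and at 241, 237, 258, 195 and 177 CPM in DHPG replicates 1 to 5. Replicate 4 was lowest in basal, the groups overlapped, and 3 of 4 pairs were higher after DHPG. The log2 change was 0.20 (standard error, SE, 0.07, with adjusted p = 0.555 in edgeR).

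Slc6a8 RNA, of the creatine carrier, was at 114, 148, 163 and 104 CPM in basal and at 138, 159, 166, 130 and 118 CPM after DHPG. All 4 pairs were higher but the groups overlapped, with a log2 change of 0.18 (SE 0.07, with adjusted p = 0.558 in edgeR). Its footprints were at 18.0 to 19.6 CPM in basal and 17.3 to 21.5 CPM after DHPG, with a log2 change of 0.03 (95% interval -0.10 to 0.16). The change of its RPF to RNA ratio was -0.15 (95% interval -0.34 to 0.03) and did not pass. Slc6a9, named after its values were seen, had 60.8, 65.9, 83.2 and 43.8 CPM in basal and 74.3, 79.3, 76.2, 59.7 and 60.7 CPM after DHPG, and its log2 change was 0.21 (SE 0.09, with adjusted p = 0.566 in edgeR).

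Slc38a11, a little studied member of its family, was the 1 lower RNA. It had only 3.92, 2.68, 2.93 and 3.11 CPM in basal and 2.32, 2.06, 1.71, 2.39 and 3.19 CPM after DHPG. All 4 pairs were lower, and of the DHPG libraries only replicate 5, which has no basal partner, lay within the basal range. The log2 change was -0.58 (SE 0.26, with adjusted p = 0.592 in edgeR) in RNA and -0.18 (95% interval -0.50 to 0.15) in RPF. In all, 3 RNAs were higher and 3 lower in all 4 pairs, or 8.11% each, where 8.67% of all genes were higher and 6.97% lower. Beside Slc6a8 and Slc38a11 these were the cationic amino acid carrier Slc7a3 (-0.29, SE 0.15), Slc1a5 (-0.33, SE 0.34), Slc38a3 (0.11, SE 0.08) and the exchanger Slc7a6 (0.12, SE 0.12), all with adjusted p values from 0.639 to 0.841 in edgeR.

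In RPF, none of the 39 genes tested passed an adjusted p of 0.05 in edgeR, and 0.22% of all genes did. At an unadjusted p under 0.05, 7 were higher (17.9%, against 6.55% of all genes) and 0 were lower (against 4.21%). DESeq2 with the block put 4 at an unadjusted p under 0.05, or 10.3% against 3.41% of all genes, and passed 0 of the 4 for which it gave an adjusted p, where 5.75% of all such genes passed. Of the 39, 30 had a positive log2 change with a median of 0.04, where 51.4% of all genes did and the median was 0.0031. The changes ran from -0.45 for Slc6a12 to 0.16 for Slc38a6. The family medians were 0.05 for Slc1a, 0.04 for Slc6a, 0.01 for Slc7a and 0.05 for Slc38a. That of Slc1a was above 0 in 5 of 5 replicate pairs and those of the other families in 4 of 5.

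In RPF the count differed with another procedure, close to that of the study, whose counts were corrected with ComBat before DESeq2. The study used more replicates than were analysed here, so the counts below do not repeat its comparison. The batch handling, the tool and the genes given an adjusted p changed together. With ComBat by replicate number followed by DESeq2 without a block, 5 of the 18 genes of the families with an adjusted p passed, all higher (Slc1a1, Slc1a2, Slc1a3, Slc6a11 and Slc7a8), where 9.48% of all such genes passed. In RNA the same procedure passed 0 of 23, where 1.77% of all genes passed.

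Slc1a1 had the smallest p in RPF. Its footprints were at 248, 260, 262, 228 and 232 CPM in basal replicates 1 to 5 and at 270, 292, 279, 237 and 233 CPM after DHPG. All 5 pairs were higher, replicates 4 and 5 were low under both treatments, and the groups overlapped. The log2 change was 0.09 (SE 0.03, with adjusted p = 0.261 in edgeR, 0.00510 to 1 over the alternatives). In RNA it was 0.0018 (95% interval -0.14 to 0.14).

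For Slc7a8 the footprints were at 105, 105, 105, 97.9 and 100.2 CPM in basal and at 119, 116, 114, 98.3 and 105 CPM after DHPG. All 5 pairs were higher, replicate 4 by only 0.005 on the log2 scale, and DHPG replicates 4 and 5 lay within the basal range. The log2 change was 0.10 (SE 0.04, with adjusted p = 0.267 in edgeR, 0.0310 to 1 over the alternatives). Slc6a11 had 207, 155, 171, 162 and 171 CPM in basal and 238, 166, 183, 170 and 171 CPM after DHPG. Replicate 1 was the highest under both treatments, all 5 pairs were higher although replicate 5 by only 0.0007 on the log2 scale, and the log2 change was 0.09 (SE 0.03, with adjusted p = 0.271 in edgeR, 0.0211 to 1 over the alternatives).

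The most abundant carrier differed little. Slc1a2 had 3030, 3525, 3688, 3281 and 3241 CPM in basal RPF and 3151, 3652, 3945, 3277 and 3406 CPM after DHPG, with 4 of 5 pairs higher. Its log2 change of 0.06 had a 95% interval of 0.998-fold to 1.08-fold (adjusted p = 0.489 in edgeR, 0.000625 to 1 over the alternatives). Slc1a3 had a log2 change of 0.05 (0.995-fold to 1.08-fold) with 4 of 5 pairs higher.

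The other genes at an unadjusted p under 0.05 in RPF were Slc7a10 (log2 change 0.11), Slc6a9 (0.12), Slc7a4 (0.08) and Slc38a3 (0.09), with adjusted p values of 0.373 to 0.456 in edgeR. Slc6a9 had 46.6, 41.7, 48.4, 44.9 and 51.5 CPM in basal and 55.6, 54.2, 51.2, 49.8 and 44.4 CPM after DHPG. Replicate 5 was lower after DHPG and the other pairs were higher, and the groups overlapped. Higher in all 5 pairs were 7 genes (17.9% of those tested, while 5.16% of all genes were), among them Slc1a1, Slc6a6, Slc6a11, Slc7a8, Slc7a10 and Slc38a3. Lower in all 5 was 1 gene, Slc6a12, where 4.72% of all genes were. It was at 1.86, 1.22, 1.14, 2.22 and 1.35 CPM in basal and 0.712, 1.21, 0.883, 1.51 and 0.922 CPM after DHPG. Its groups overlapped, with a log2 change of -0.45 (SE 0.23, with adjusted p = 0.494 in edgeR).

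**Figure D2:**
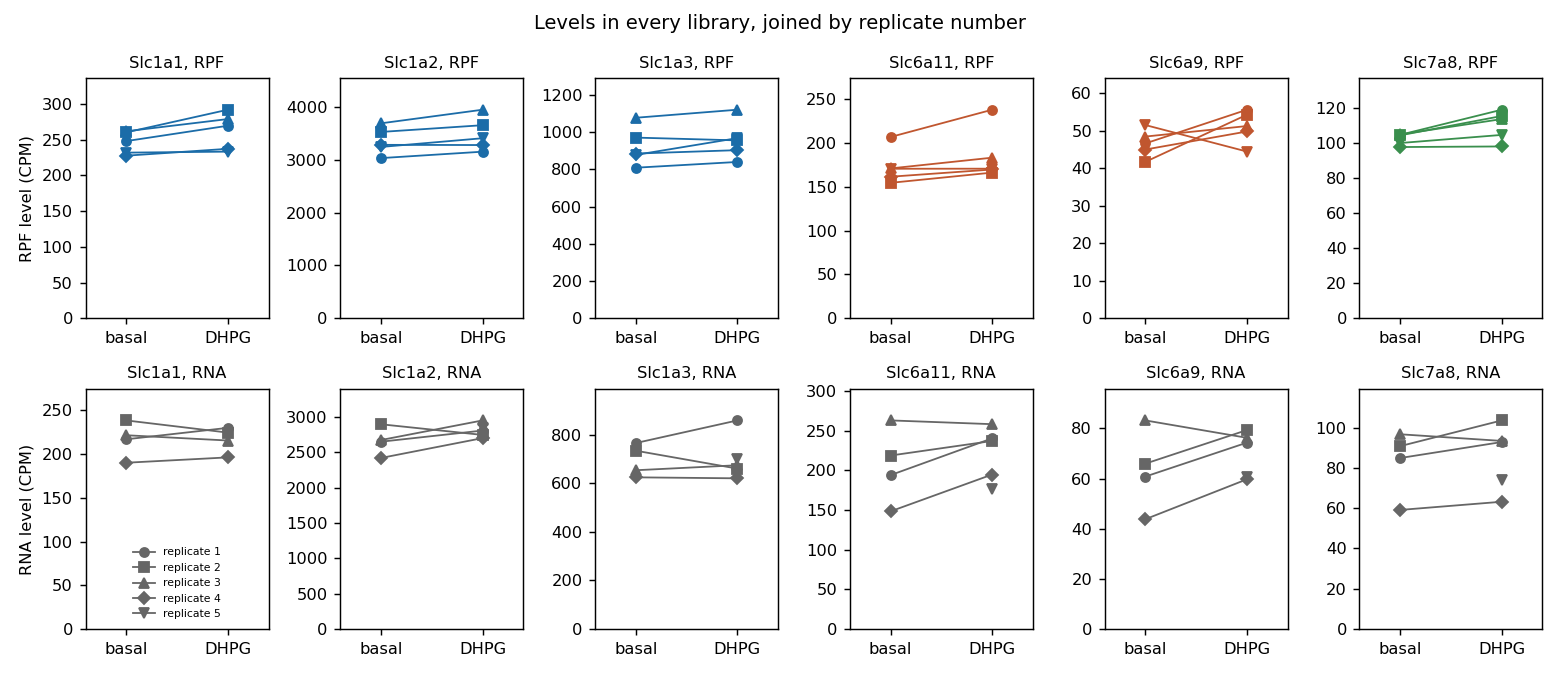
CPM of 6 carriers in every library, RPF above and RNA below, with lines joining basal and DHPG libraries of the same replicate number. All axes start at 0. Shown are the 5 carriers that passed as higher in RPF with ComBat and DESeq2. Slc6a9, higher in RPF at an unadjusted p under 0.05 in edgeR, is shown as well. That most lines rise slightly in RPF is thus given by the choice of genes. Slc6a9 in replicate 5 has the steepest fall, and the DHPG RNA library of replicate 5 has no basal partner.

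**Figure D3:**
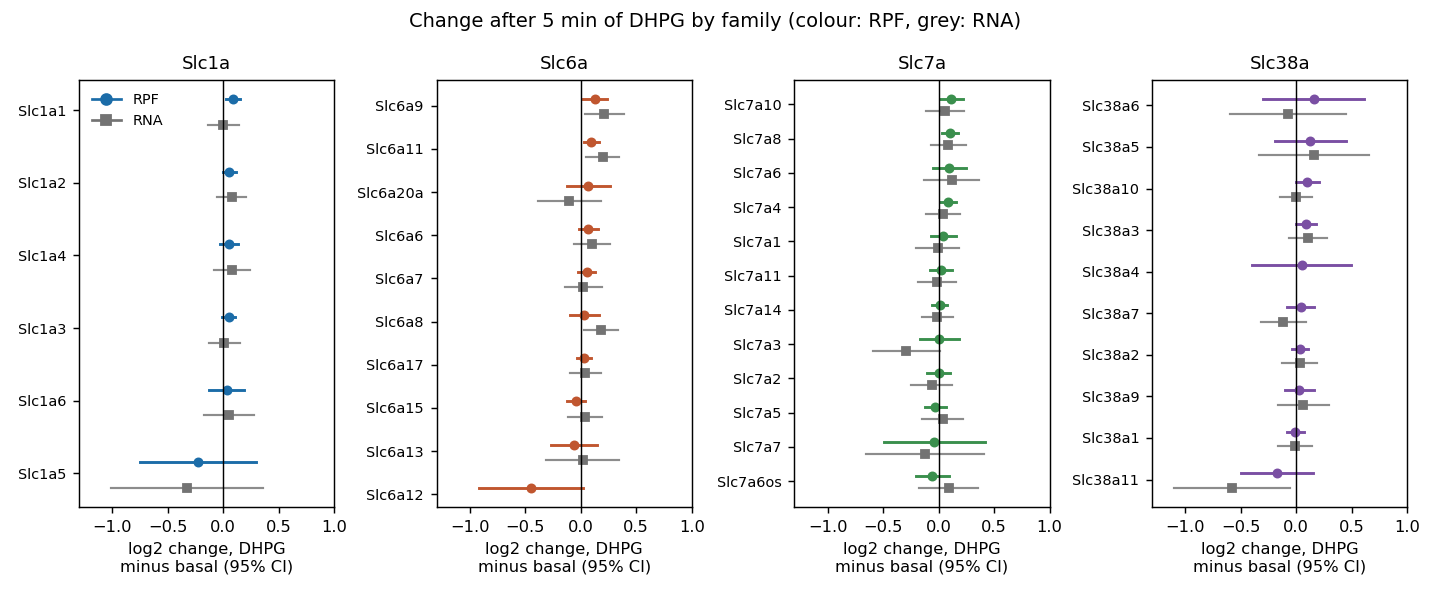
Log2 change after DHPG with its 95% confidence interval from edgeR for 38 of the 39 genes tested in RPF, by family (coloured circles RPF, grey squares RNA). Most RPF points lie just right of 0, with a median of 0.04, and the widest intervals belong to the low genes Slc1a5, Slc6a12, Slc7a7, Slc38a4, Slc38a6 and Slc38a11.

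Markers of other cells differed in these comparisons as well. The 10 thalamus markers summed to 172, 173, 172, 208 and 199 CPM in basal RPF replicates 1 to 5 and to 205, 236, 232, 266 and 172 CPM after DHPG. Replicate 5 alone had a lower sum after DHPG. In RNA the sums were 229 to 280 CPM in basal and 229 to 345 CPM after DHPG, higher in 4 of 4 pairs. Of 7 thalamus markers tested in RNA 7 were higher, 6 of them at an unadjusted p under 0.05, and Prkcd was the 1 gene of all those tested to pass in RNA. All 10 astrocyte markers had a positive log2 change in RPF, 5 of them at an unadjusted p under 0.05 and 0 past the threshold, with a median of 0.08, and their sums were 2299 to 2841 CPM in basal and 2293 to 3003 CPM after DHPG. Of 8 oligodendrocyte markers, 8 had a positive change in RNA and 6 in RPF, where 1 passed (Mag, higher). Of 9 interneuron markers tested, 4 were higher in RPF and 1 passed (Sst, higher), with sums of 1659 to 1774 CPM in basal and 1691 to 1865 CPM after DHPG. For microglia 8 of 8 were higher in RPF (469 to 693 CPM in basal and 545 to 740 CPM after DHPG), for endothelial cells 1 of 8 (32.1 to 49.0 and 29.0 to 47.2 CPM), and for excitatory neurons 5 of 10. For meninges and choroid plexus, from which Slc6a12 and Slc6a13 are known, 4 of 6 tested were higher, with sums of 215 to 326 CPM in basal and 220 to 291 CPM after DHPG, and Kcne2 was at 0 in every RNA library. RNA gave other counts: 7 of 10 astrocyte, 2 of 9 interneuron, 9 of 10 excitatory neuron and 4 of 8 microglia markers tested were higher. The same held for 2 of 7 endothelial markers and 3 of 6 of meninges and choroid plexus. The part of these shifts in the changes of the carriers was not tested.

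Partner genes from the same pathways were compared in the same fit. Of 8 vesicular transporters, which load transmitter into synaptic vesicles, 6 were tested in RPF and 1 passed, Slc17a6 (VGLUT2), from 59.9 ± 2.82 to 70.5 ± 9.92 CPM with a log2 change of 0.23 (adjusted p = 0.0144 in edgeR), a gene that is itself among the thalamus markers. The hippocampal glutamate loader Slc17a7 (VGLUT1) had a log2 change of 0.04 and the GABA loader Slc32a1 of 0.01 in RPF. Of 10 genes of glutamate and GABA metabolism 0 passed in either assay and 3 of 10 were higher in RPF, and glutamine synthetase Glul had a log2 change of 0.02 (adjusted p = 0.833 in edgeR). Of 8 heavy chains and other amino acid carriers tested in RPF 7 were higher and 0 passed, among them the heavy chain Slc3a2 (293 ± 28.5 to 316 ± 30.03 CPM, log2 change 0.10, adjusted p = 0.164 in edgeR). Of 9 amino acid response genes tested in RPF 7 were higher and 0 passed. In RNA, 0 genes of any of the 4 lists passed, and in each list 0 or 1 had an unadjusted p under 0.05.

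Whether DHPG altered footprints relative to RNA was tested as the interaction of assay and treatment over all 19 libraries. The study took RNA and RPF material from the same lysate, but the fit treated the libraries of both assays as separate samples. RNA had 4 replicate pairs and RPF had 5. None of 37 genes passed an adjusted p of 0.05 in edgeR (0% of all genes), and 0 had an unadjusted p under 0.05, where 6.77% of all genes did. The smallest adjusted p was 0.759. DESeq2 with the same blocks also passed 0. The change of the ratio ran from -0.15 to 0.41 on the log2 scale, highest in Slc38a11.

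The ratio of RPF to RNA in basal slices, each per length, was then set against the median gene. Of 36 genes, 13 were higher and 13 lower at an adjusted p of 0.05 in edgeR, that is 36.1% each, where 39.7% and 39.4% of all genes were. The counts thus stand close to those of genes at large, and the split is given by family. The median was 0.85 for Slc1a, with 4 of 5 genes higher, and -0.43 for Slc6a, with 1 of 10 higher and 5 lower. It was 0.07 for Slc7a, with 5 of 12 higher and 3 lower, and -0.25 for Slc38a, with 3 of 9 higher and 4 lower. Medians in single replicates were taken from log2 CPM and not from the fit, so a fitted median can lie outside them, as for Slc7a. They ran from 0.68 to 1.07 for Slc1a and from -0.63 to 0.09 for Slc6a. For Slc7a they ran from 0.10 to 0.21 and for Slc38a from -0.67 to 0.26.

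Slc1a2 had the highest ratio, at 2.16, 2.25, 2.39 and 2.40 in basal replicates 1 to 4 on the log2 scale, with a fitted value of 2.295 (SE 0.12, with adjusted p = 4.12e-07 in edgeR). Slc7a11 followed at 1.80, Slc38a1 at 1.66, the lysosomal sensor Slc38a9, named after its values were seen, at 1.53 and Slc38a2 at 1.45. Slc6a8 was lowest at -2.40, -2.68, -2.84 and -2.24, with a fitted value of -2.56 (SE 0.14, with adjusted p = 5.33e-07 in edgeR), and all 4 replicates lay below the 5th percentile of genes at -2.14. Slc38a10, a broadly expressed member with a long coding sequence, had -2.39, -2.33, -2.66 and -2.31, with a fitted value of -2.44 (SE 0.12, with adjusted p = 3.59e-07 in edgeR). The lowest of the other families were the exchanger Slc7a7, whose RNA level is uncertain, at -1.44 and Slc1a6 at -1.299, while Slc6a6 was the highest of Slc6a at 0.35, and at -0.40 without lengths.

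The order was then set beside the annotated transcripts. Across the 36 genes, which share all libraries, the ratio had a Spearman correlation of -0.86 with the coding share of the annotated transcript. Across 12097 genes it was -0.69. The lengths that make up this share also enter the ratio, so part of both correlations is fixed by the calculation. Without lengths they were -0.39 and -0.27. The transcript of Slc1a2 with the longest coding sequence has 11595 nt of which 14.8% are coding, those of Slc7a11 16.4% and Slc38a1 20.1%, against a median of 53.6% over all genes. A footprint can come only from the coding part, whereas RNA reads were counted over the whole annotated transcript, and how much of these long transcripts the slices make was not tested. With median transcript lengths the ratio of Slc1a2 was -0.11 (adjusted p = 0.377 in edgeR), and with no length at all 0.51 (adjusted p = 0.00294 in edgeR). Slc7a11 was at 1.19 with median lengths and 0.16 with no length, Slc38a1 at 1.17 and 0.30, and Slc38a2 at 1.48 and 0.80.

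At the lower end, Slc6a8 and Slc38a10 had low ratios under every choice of length. Without lengths Slc6a8 was at -2.63, with 1.02% of all genes at or below it, and Slc38a10 at -1.92, with 3.63% at or below it. With median lengths they were at -2.96 and -2.48, and in DHPG libraries at -2.67 and -2.28. In plain CPM, Slc6a8 RNA was at 132 ± 27.9 (SD, n = 4) in basal slices and its footprints at 18.9 ± 0.703 (SD, n = 5), and Slc38a10 RNA at 156 ± 21.2 with footprints at 36.4 ± 2.08.

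**Figure D4:**
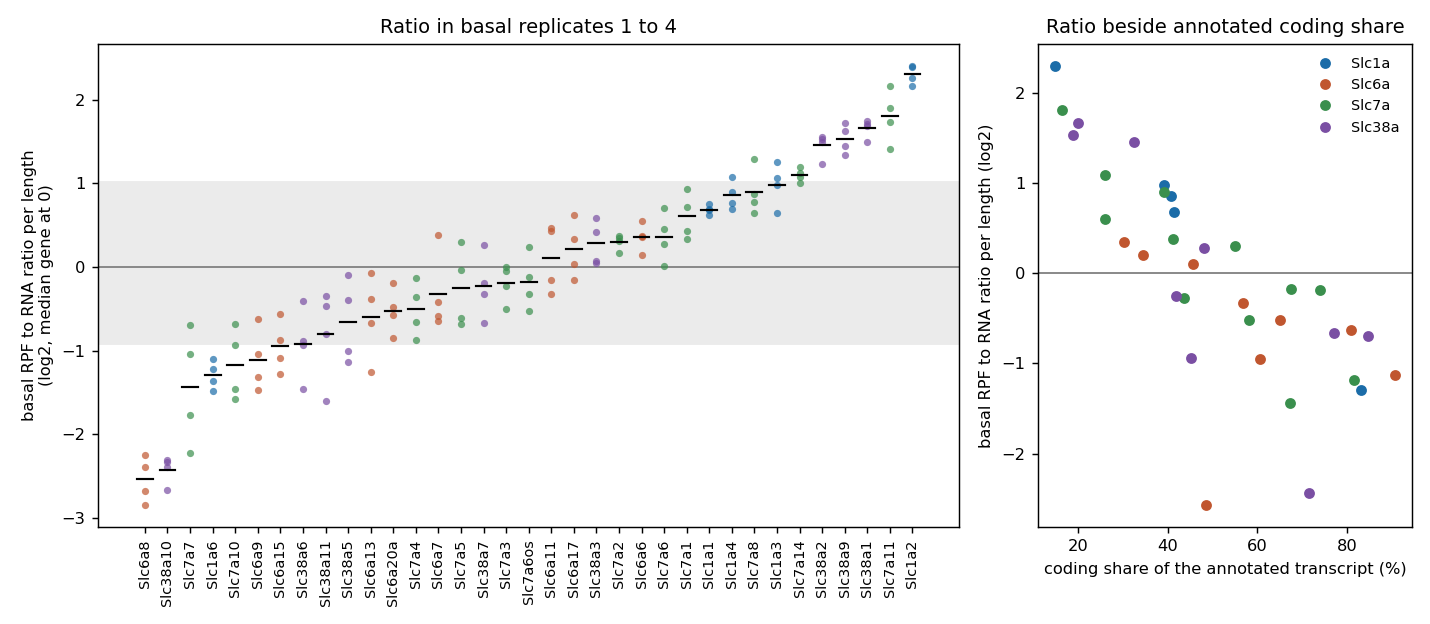
Left, basal RPF to RNA ratio per length (log2, median gene at 0) of 35 of the 36 genes in replicates 1 to 4, with bars at the means and a grey band for the quartiles of all genes. Right, the fitted ratio against the coding share of the annotated transcript, which itself enters the ratio through the lengths. The ratio falls from 2.295 at a share of 14.8% (Slc1a2), while Slc6a8 lies apart at -2.56 and 48.5%.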

How the data were processed

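RNA-seq (9 libraries) and ribosome profiling (10 libraries) of hippocampal slices were analysed. The authors removed adapters with cutadapt and ribosomal and transfer RNA with Bowtie2, and aligned reads to mm10 with TopHat2. They kept uniquely mapped reads, removed duplicates by molecular identifiers and estimated counts with RSEM. The deposited values are expected counts, rounded to whole numbers and not normalized, over coding sequences less 30 nt at each end for RPF and over whole transcripts for RNA. Whether counting used strand is not given in the sources used here. A further 12 table columns, of higher replicate numbers, matched none of the samples given and were left out.

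Groups came from the sample labels. Genes kept by filterByExpr were fitted with edgeR 4.0.16 (R 4.3.3, limma 3.58.1), with TMM factors, replicate number as a block, the quasi-likelihood test and p-values adjusted by Benjamini-Hochberg across every gene in the fit (thresholds 0.01 for RNA and 0.05 otherwise). The ratio change was the interaction of assay and treatment, and the basal ratio was RPF against RNA in replicates 1 to 4 with lengths as offsets, centred at the median gene. Lengths came from the transcript with the longest coding sequence in GENCODE (mm10), with 20336 of 20436 symbols and all 54 genes of the families matched. Log2 CPM used a prior count of 2. Scripts were tested on simulated data.

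Deviations of same-numbered libraries were correlated (0.27 to 0.72 in RNA and 0.26 to 0.52 in RPF), although RNA replicate 2 correlated more with another number (0.443) than with its own (0.270), and in the study's methods replicate numbers are batches, so the numbers were taken to pair the libraries. DHPG replicate 5 of RNA has no basal partner, and leaving it out moved RNA changes slightly (Slc1a1 from 0.0018 to -0.0051). Replicates are separate samples by the labels. With replicate number as a block, the level of each replicate is removed, and p-values measure only how the compared difference varied between replicates. Alternatives were DESeq2 1.42.0, ComBat (sva 3.50.0) with DESeq2, other size factors, no filter, no block, other lengths and leaving out each replicate.

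The carriers, gene lists and tests were chosen with earlier results of these data known. Genes named with values were the 4 highest in basal RPF of each family, the 5 largest changes in each assay that went one way in every pair, the highest and lowest basal ratio of each family and Slc6a2 to Slc6a5, and others named were chosen after their values were seen. Paralogs over 80% identical in protein were treated as uncertain. Of these genes, 1 is counted but its own values are not reported here.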

Additional observations from a re-analysis of the deposited data

Results flagged for a closer look

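Of 102 groups of 4 or 5 libraries of a named carrier, 3 held a library far from the others by Dixon's criterion, where chance gives about 5.1, or 1 in 20. Slc1a6 RNA was at 16.1 CPM in basal replicate 4 and at 21.7 to 22.5 CPM in the other basal libraries. Slc6a11 footprints were at 238 CPM in DHPG replicate 1 and at 166 to 183 CPM in the other DHPG libraries, and basal replicate 1 was likewise the highest of its group. Slc7a14 footprints were at 219.97 CPM in basal replicate 2 and at 212.8 to 213.1 CPM in the others.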

How the results depend on the processing

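No carrier passed for the change after DHPG in RNA or in the RPF to RNA ratio under any alternative run, and in RPF 5 passed with ComBat and DESeq2 and 0 under the others. Without the replicate block, with libraries not treated as pairs, 0 passed in RNA, RPF and the ratio change, the log2 RNA change was -0.0352 for Slc38a2, -0.0235 for Slc6a17, -0.0325 for Slc6a7 and 0.0282 for Slc7a11, each of opposite sign to the blocked value, and 26 genes still differed in the basal ratio. The basal ratio differed for 26 genes in the main fit, for 19 without lengths and for 21 to 28 under the other alternatives. In the main fit 39.7% of all genes were higher and 39.4% lower. Shares of all genes under the alternatives are not given here, so these counts show nothing particular to the carriers. The median ratio of Slc1a was 0.51 without lengths, and that of Slc7a was 0.13 with median lengths, 0.23 in DHPG libraries and 0.13 to 0.26 leaving out a replicate. The median RPF change of Slc7a was 0.0206 to 0.0955 leaving out a replicate, highest without replicate 3. The cause of these shifts was not tested.

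Some values changed sign, among them the ratio of Slc1a2 (2.295 in the report) and that of Slc6a6 (0.35). The RNA change of Slc1a1 was -0.00504 with no filter and -0.00307 with ComBat, and the RPF change of Slc7a7 was 0.015 with ComBat. Without lengths the ratio was 0.019 for Slc38a11, -0.058 for Slc6a11, -0.35 for Slc6a17, -0.40 for Slc6a6 and 0.24 for Slc7a3. With median lengths it was -0.11 for Slc1a2 and -0.012 for Slc38a3, and in DHPG libraries 0.16 for Slc7a3. Leaving out each replicate gave RNA changes of Slc1a1 -0.0336 to 0.0307, Slc1a3 -0.0458 to 0.0676, Slc38a1 -0.0566 to 0.0271, Slc38a10 -0.0475 to 0.0248, Slc38a2 -0.0678 to 0.0697, Slc38a7 -0.223 to 0.00219, Slc6a17 -0.0272 to 0.101, Slc6a7 -0.0875 to 0.0877, Slc7a10 -0.0222 to 0.0960, Slc7a11 -0.0669 to 0.0120, Slc7a14 -0.0581 to 0.0222, Slc7a4 -0.0209 to 0.144 and Slc7a7 -0.510 to 0.0603. The RPF changes were Slc1a5 -0.518 to 0.123, Slc1a6 -0.0312 to 0.0569, Slc38a1 -0.0528 to 0.0173, Slc6a17 -0.00520 to 0.0484, Slc6a8 -0.0125 to 0.0798, Slc7a11 -0.0222 to 0.0981, Slc7a14 -0.0195 to 0.0353, Slc7a3 -0.0689 to 0.0987 and Slc7a7 -0.150 to 0.111, and the ratio of Slc6a11 was -0.00927 to 0.215. None of these RNA or RPF changes passed a threshold. Depth limits the carriers with few counts, such as Slc1a5 and Slc6a12, whose intervals are widest.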
